A study of Mus musculus with 10 samples.

Results

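The melanocyte lineage genes *Mitf*, *Dct*, *Tyr*, *Tyrp1* and *Kit* were examined in neural crest progenitors (NCPs) of the mouse lower urinary tract and in total embryo RNA. They were found by their symbols in the annotation of the array's probe sets, a probe set being the group of probes summarized into a single value. For each gene the probe set annotated to that gene alone with the highest mean over all 10 arrays was taken, which gave 5 of the 19937 genes named this way. The 5 genes hold 6 of the 28192 probe sets tested, because *Mitf* has 2.

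The NCPs were *Sox10*-H2BVenus+ cells labelled embryonic day 13, sorted by fluorescence from dissociated lower urogenital tract of mice carrying the *Sox10*-HIST2H2BE/Venus transgene, in which *Sox10* regulatory sequence drives a fluorescent histone. The protocol in the labels describes a sort for positive cells in 1 place and elsewhere has wording that could be read as cells without the reporter. What was sorted is taken here from the sample descriptions, which carry the letters PG. Pelvic ganglia, a narrower source than the lower urogenital tract, are what the study's text names for these cells. Each of 3 NCP samples was measured on an Affymetrix mouse Gene 1.0 ST array, and total embryo on 7 such arrays. The labels do not say which total embryo arrays share an RNA. Their sample names fall under 2 series prefixes, on 3 arrays (replicates 1, 2 and 7) and 4 arrays (replicates 3 to 6, of which replicate 6 has its number spelled differently), and each is taken here as 1 isolate. The arrays may therefore be repeat hybridizations, and p-values then measure partly technical spread. The stage, strain and genotype of the total embryo are not given in the labels. The labels name no treatment, and no other sorted cell population was analysed here.

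Melanocytes descend from neural crest cells, partly by way of Schwann cell precursors along nerves, and *Sox10* is active both in their precursors and in the progenitors of autonomic ganglia. *Mitf* encodes the basic helix-loop-helix leucine zipper transcription factor that specifies melanoblasts. It is switched on by SOX10 and PAX3 and binds the M-box, an extended E-box, in front of the pigment enzyme genes. *Tyr* encodes tyrosinase, which starts melanin synthesis, *Dct* encodes dopachrome tautomerase, an early melanoblast marker, and *Tyrp1* encodes tyrosinase-related protein 1 of the same pathway. *Kit* encodes the receptor tyrosine kinase that melanoblasts need to migrate and survive, and it is also used by mast cells, germ cells, blood progenitors and the interstitial cells of Cajal of the gut.

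The promoters of these genes are shown because those of the pigment enzyme genes share a short element. Sequences are from RefSeq for GRCm38.p6, and each holds the 250 bases before an annotated start. All 5 genes had at least 1 window in the table, with 3 windows for *Mitf* and 2 for *Kit*. Capitals mark the M-box letters TCATGTG on either strand in *Tyr*, *Tyrp1* and *Dct*, and the cyclic AMP response element letters TGACGTCA in *Mitf*.
Tyr, chr7:87493513-87493762, minus strand: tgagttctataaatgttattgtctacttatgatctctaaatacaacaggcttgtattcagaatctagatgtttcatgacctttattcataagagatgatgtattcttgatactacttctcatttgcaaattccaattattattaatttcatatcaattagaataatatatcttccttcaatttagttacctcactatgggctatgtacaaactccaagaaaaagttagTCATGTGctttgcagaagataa
Tyrp1, chr4:80833963-80834212, plus strand: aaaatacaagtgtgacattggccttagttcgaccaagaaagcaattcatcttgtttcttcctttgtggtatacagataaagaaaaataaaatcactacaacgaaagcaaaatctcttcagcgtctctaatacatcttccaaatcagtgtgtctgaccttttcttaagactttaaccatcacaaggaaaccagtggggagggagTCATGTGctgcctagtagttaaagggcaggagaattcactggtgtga
Dct, chr14:118052247-118052496, minus strand: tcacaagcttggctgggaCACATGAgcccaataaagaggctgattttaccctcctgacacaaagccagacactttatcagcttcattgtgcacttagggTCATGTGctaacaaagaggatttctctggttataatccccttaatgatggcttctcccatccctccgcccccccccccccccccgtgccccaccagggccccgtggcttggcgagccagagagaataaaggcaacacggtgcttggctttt
Mitf, chr6:97991533-97991782, plus strand: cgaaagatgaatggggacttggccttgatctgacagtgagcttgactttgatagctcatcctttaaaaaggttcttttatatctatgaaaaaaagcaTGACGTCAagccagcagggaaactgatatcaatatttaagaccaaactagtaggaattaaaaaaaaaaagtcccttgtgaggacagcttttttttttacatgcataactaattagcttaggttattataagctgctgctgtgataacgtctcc
The M-box letters began 22 bases before the start in *Tyr* and 47 bases before it in *Tyrp1*. In *Dct* they began 151 bases before the start on the gene's strand, with another match on the opposite strand that began 232 bases before it. Of 32851 windows of 250 bases before to 50 after a start, 3.77% held TCATGTG and 14.2% the E-box core CATGTG contained in it, on either strand. The letters TGACGTCA, present in 1.79% of windows, began 153 bases before the start in the third *Mitf* window. The other *Mitf* windows and both *Kit* windows held none of these letters. A match of letters does not show that a factor binds there, and the arrays measured no binding.

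The NCP arrays had a narrower range of values than the total embryo arrays. The standard deviation over all probe sets was 0.97 to 1.13 log2 units on the NCP arrays and 1.78 to 1.91 on the total embryo arrays. The log2 fold change, given throughout as NCP minus total embryo, therefore followed the level in total embryo, with a median of 2.08 in the lowest of 10 equal groups by that level and -2.16 in the highest. For this reason each change below is set beside that of probe sets whose total embryo mean lies within 0.25 log2 units of the gene's own, called probe sets of similar level. Level adjustment, a second scale, subtracted from each array its trend on total embryo level before the same test. A reference for low values was taken from 1208 probe sets of olfactory and vomeronasal receptors, genes used mainly in the nose. Their median was 5.39 to 5.61 on the NCP arrays and 3.62 to 3.88 on the total embryo arrays.

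On the values as deposited, *Tyr* and *Tyrp1* were higher in NCPs, *Mitf* and *Kit* were lower, and *Dct* did not pass the test (limma, adjusted p of 0.05). The second probe set of *Mitf*, not counted here, was higher by 3.06 (limma, adjusted p = 1.36e-06). Of all probe sets, 39.6% were called higher and 27.5% lower, so 2 of 5 in each direction is near the background. After level adjustment, *Dct* was higher and *Tyr* lower, while *Mitf*, *Tyrp1* and *Kit* did not pass. The corresponding shares of all probe sets were 10.3% and 8.29%. *Tyrp1* was the member whose 3 NCP arrays all lay above the 7 total embryo arrays, and *Kit* the member whose NCP arrays all lay below them, against 31.8% and 21.5% of all probe sets. In bulk RNA, fewer cells of a type and less RNA per cell cannot be told apart.

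**Figure D1:**
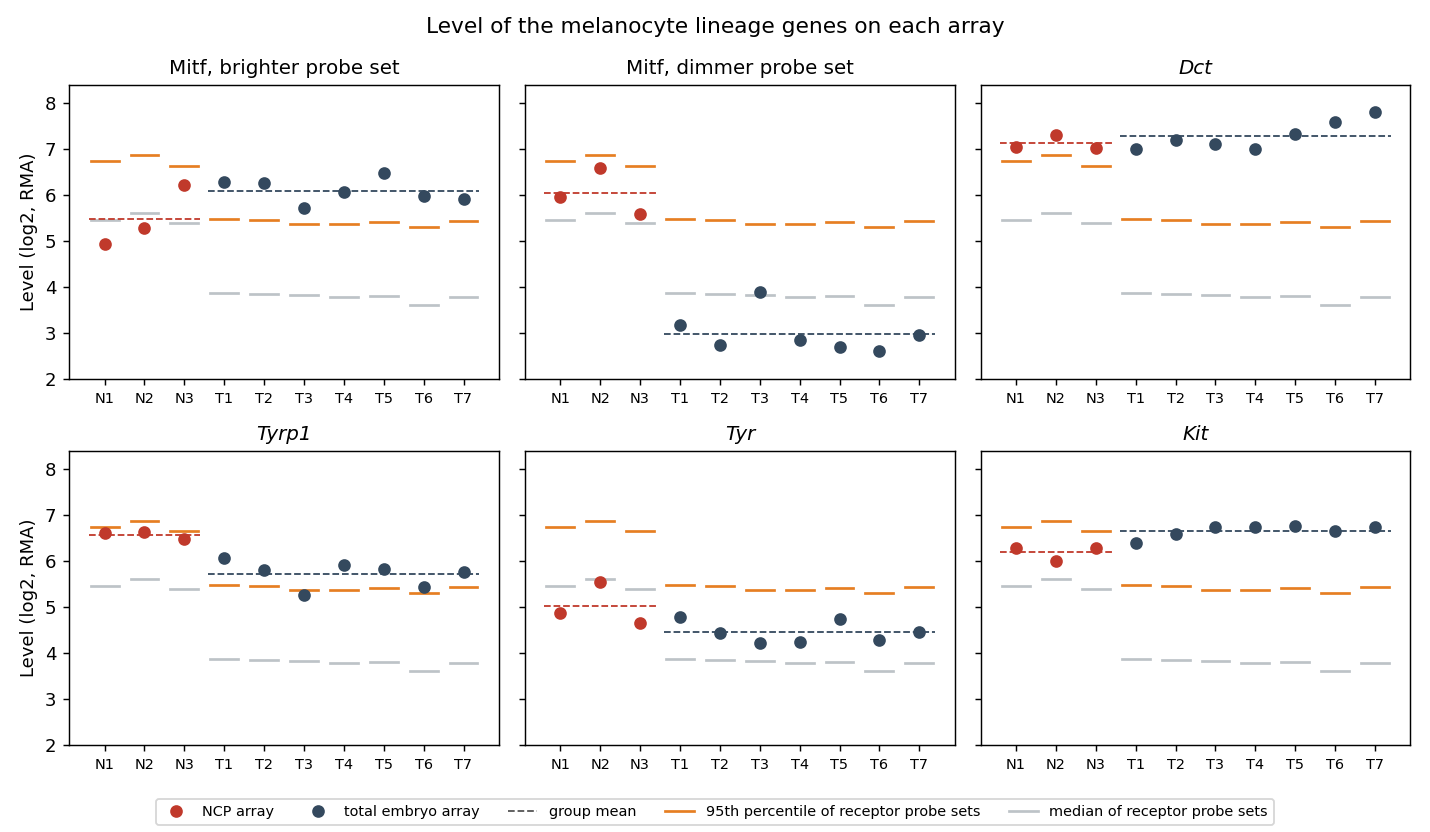
Level of each gene (log2, RMA, vertical axis) on the 3 NCP arrays (N1 to N3, red) and the 7 total embryo arrays (T1 to T7, blue), with group means as dashed lines and each array's receptor probe set median (grey) and 95th percentile (orange). *Dct* lies above the orange line on all 10 arrays, whereas *Tyr* lies below it on all 10.

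*Mitf*, the lineage's master regulator, was read by 2 probe sets that moved in opposite directions. The probe set with the higher mean over all arrays, taken for the counts, was low and variable in NCPs. Its level was 4.93, 5.29 and 6.23 log2 units in NCP replicates 1, 2 and 3. In total embryo it ranged from 5.72 to 6.47, with a median of 6.07. NCP replicates 1 and 2 lay below every total embryo array, while NCP replicate 3 lay among them. The group means were 5.49 ± 0.67 (SD, n = 3) and 6.10 ± 0.25 (SD, n = 7), a log2 fold change of -0.62 with a 95% interval of -1.17 to -0.06 (limma, adjusted p = 0.0471). The call was lost when NCP replicate 1 (-0.34) or NCP replicate 2 (-0.52) was left out, and also without any of 6 of the 7 total embryo arrays. Without NCP replicate 3 the change was -0.99 (limma, adjusted p = 0.00137).

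Among the 3724 probe sets of similar level the median change was 0.16, with quartiles of -0.13 and 0.47. *Mitf* lay 0.78 below that median, at percentile 4.11. After level adjustment its change was -0.77 with an interval of -1.33 to -0.22 (limma, adjusted p = 0.0535), which did not pass, and without NCP replicate 3 it was -1.14 (adjusted p = 0.00351), which did. Its level stood at percentile 98.8 of the receptor probe sets on average in total embryo and at percentile 47.0 in NCPs, where the 3 arrays ranged from 22.8 to 85.2.

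The second probe set of *Mitf* moved the opposite way. Its level was 5.97, 6.60 and 5.60 in NCP replicates 1 to 3 and ranged from 2.62 to 3.90 in total embryo, so the groups did not overlap. The change was 3.06 with SE 0.28 (limma, adjusted p = 1.36e-06). The 979 probe sets of similar level had a median change of 2.18, and this probe set lay 0.88 above it, at percentile 94.1. After level adjustment its change was 0.81 (limma, adjusted p = 0.0464). The groups then overlapped through total embryo replicate 3 alone, at 3.91, with the NCP arrays at 3.47 to 4.17. Leaving out 1 array gave changes of 0.63 to 0.98 on this scale. The level adjusted call was lost in 11 of the 13 fits that left out an array or changed the controls. In total embryo this probe set stood at percentile 18.7 of the receptor probe sets, and in NCPs at percentiles 58.8 to 89.6. The probe set taken for the counts is called the brighter and this one the dimmer, by their means over all arrays. In NCPs the order was reversed, with means of 5.49 for the brighter and 6.06 for the dimmer. The annotation lists 7 transcript accessions for the brighter probe set and 4 for the dimmer, and all 4 are shared. The mean of both probe sets gave a change of 1.22, so the direction for *Mitf* depended on which probe set was read.

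*Dct* did not pass the test, at a level above nearly all receptor probe sets in both groups. It measured 7.05, 7.30 and 7.04 in NCP replicates 1 to 3 and 7.02 to 7.81 in total embryo, with a median of 7.20. The NCP arrays lay within the total embryo range. The change was -0.17 with an interval of -0.60 to 0.26 (limma, adjusted p = 0.471). Its percentile among the receptor probe sets was 97.4 to 98.3 on the NCP arrays and 99.9 on every total embryo array.

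Probe sets of the level of *Dct* mostly had lower values in NCPs, with a median change of -0.87 over 2211 probe sets. *Dct* lay 0.70 above that median, at percentile 87.4. After level adjustment it was higher by 0.71 with an interval of 0.28 to 1.14 (limma, adjusted p = 0.0272), at 7.85 to 8.27 in NCPs and 7.0 to 7.80 in total embryo. On this scale the groups did not overlap, but the share of all probe sets that separate on it was not counted. The call was lost without NCP replicate 2 (0.58) and without total embryo replicate 5 (0.71), and with total embryo arrays averaged per isolate (0.70, adjusted p = 0.492).

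*Tyrp1* was higher in NCPs on every array. Its level was 6.61, 6.63 and 6.48 in NCP replicates 1 to 3 and 5.27 to 6.07 in total embryo, with a median of 5.81. The NCP arrays were close together and the lowest of them exceeded the highest total embryo array. The means were 6.57 ± 0.08 (SD, n = 3) and 5.73 ± 0.28 (SD, n = 7), a change of 0.84 with an interval of 0.43 to 1.25 (limma, adjusted p = 0.00159). The call held when any of the 10 arrays was left out, with changes of 0.76 to 0.90.

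The 3656 probe sets of the level of *Tyrp1* had a median change of 0.41, and *Tyrp1* lay 0.43 above it, at percentile 82.9. After level adjustment its change was 0.42 (limma, adjusted p = 0.125) and the groups overlapped. It stood at percentile 91.9 of the receptor probe sets on the NCP arrays and at 97.1 on the total embryo arrays. Centring the arrays on the receptor probe sets shifted all probe sets alike, moving their median from 0.23 to -1.47, and *Tyrp1* with them to -0.85.

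*Tyr* lay among the receptor probe sets in both groups. It measured 4.88, 5.55 and 4.67 in NCP replicates 1 to 3 and 4.23 to 4.79 in total embryo, with a median of 4.45. NCP replicate 2 was the highest of all arrays, NCP replicate 1 lay just above total embryo, and NCP replicate 3 lay among the total embryo arrays. The change was 0.57 with an interval of 0.11 to 1.03 (limma, adjusted p = 0.03), and without NCP replicate 2 it was 0.31 and did not pass. The call was also lost without total embryo replicate 3, 4 or 6 (0.53 to 0.54).

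Of 1893 probe sets of the level of *Tyr*, the median change was 1.24, and *Tyr* lay 0.67 below it, at percentile 7.50. After level adjustment *Tyr* was lower, with a change of -0.68 with an interval of -1.10 to -0.27 (limma, adjusted p = 0.0268), at 3.49 to 4.20 in NCPs and 4.26 to 4.78 in total embryo. This call was lost without NCP replicate 1 (-0.62) or NCP replicate 3 (-0.54). On the receptor scale *Tyr* stood at percentile 27.0 in NCPs, where the arrays ranged from 16.1 to 45.0, and at 74.4 in total embryo. Its level in NCPs was thus below most receptor probe sets on each of the 3 arrays.

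*Kit*, the receptor for stem cell factor, was slightly lower in NCPs. Its level was 6.28, 6.0 and 6.29 in NCP replicates 1 to 3 and 6.41 to 6.77 in total embryo, with a median of 6.74. Each NCP array lay below each total embryo array, although NCP replicate 3 and total embryo replicate 1 were close. The change was -0.48 with an interval of -0.81 to -0.15 (limma, adjusted p = 0.0145), and the call held without any one array (-0.52 to -0.38). The 3055 probe sets of similar level had a median change of -0.30, and *Kit* lay 0.18 below it, at percentile 35.7. After level adjustment the change was -0.17 with an interval of -0.47 to 0.13 (limma, adjusted p = 0.433).

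**Figure D2:**
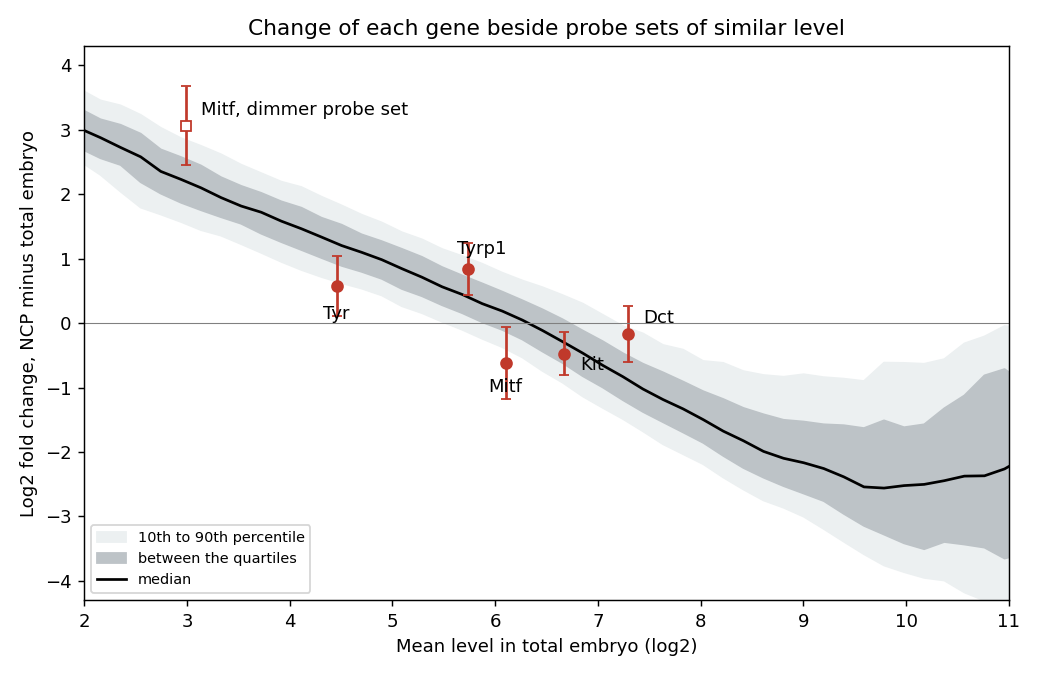
Log2 fold change (NCP minus total embryo, vertical axis) against mean level in total embryo (log2, horizontal axis) for the 6 probe sets, with 95% intervals as bars, over the median and percentile bands of probe sets within 0.25 log2 units of each level. *Mitf* and *Tyr* lie below the band between the quartiles, *Dct*, *Tyrp1* and the dimmer *Mitf* probe set above it, and *Kit* inside it.

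The pigment enzyme genes, all with M-box letters before their start, lay on both sides of the median of similar level, at 0.70 above it for *Dct*, 0.43 above it for *Tyrp1* and 0.67 below it for *Tyr*. The difference between these genes was not tested, *Tyrp1* did not pass after level adjustment, and *Tyr* lay among the receptor probe sets, so its value is not clear of background. The summed linear level of the 5 genes was 368 to 407 on the NCP arrays and 355 to 469 on the total embryo arrays, which overlap. The 2 sets of total embryo arrays taken as isolates differed by -0.14 for *Kit* to 0.27 for *Tyrp1*.

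The control arrays mattered for these calls. The NCP arrays share a series prefix in their sample names with total embryo replicates 1, 2 and 7, and the day in their names with total embryo replicate 1 alone. Against the arrays of the same series, *Tyrp1* passed and the other 4 genes did not. In that fit 26.8% of all probe sets were called higher and 19.5% lower. With the total embryo arrays averaged into 2 values 0 of the 5 passed (limma), and 1, *Tyrp1*, had an unadjusted p below 0.05. The shares of all probe sets called were then 20.4% higher and 14.8% lower, beside 39.6% and 27.5% with all arrays. Against the single array of the same day the changes were -0.80 for *Mitf*, 0.24 for *Tyr*, 0.50 for *Tyrp1* and -0.21 for *Kit*. The directions as deposited held in these fits except for *Dct* against the array of the same day (0.11).

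**Figure D3:**
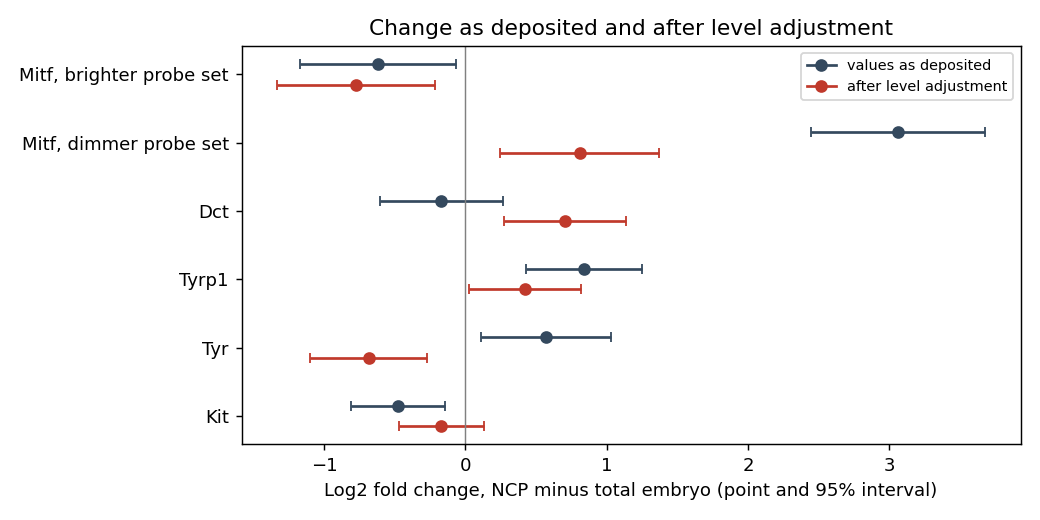
Log2 fold change (NCP minus total embryo, horizontal axis) of each probe set with its 95% interval, for the values as deposited (blue) and after level adjustment (red). *Dct* goes from -0.17 to 0.71 and *Tyr* from 0.57 to -0.68 between the scales. The brighter *Mitf* probe set (-0.62 and -0.77), the dimmer (3.06 and 0.81), *Tyrp1* (0.84 and 0.42) and *Kit* (-0.48 and -0.17) keep their direction.

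Of 9 genes that act on *Mitf*, 2 were higher in NCPs and 5 lower, where 39.6% and 27.5% of all probe sets were, with a median change of -0.84 where probe sets of similar level had a median of -0.79. *Sox10*, which encodes an activator of *Mitf* and whose reporter defined the sort, was higher by 1.0 (limma, adjusted p = 0.000278) and lay 1.21 above probe sets of similar level. *Foxd3*, a neural crest factor that holds melanoblast fate back, was higher by 1.33 and after level adjustment by 0.78 (limma, adjusted p = 0.0392). *Snai2*, a neural crest factor needed by melanoblasts, was lower, with a change of -2.20 and of -1.06 after level adjustment (limma, adjusted p = 0.00689). *Ctnnb1*, which encodes β-catenin of the Wnt pathway, was lower, with a change of -2.65, and after level adjustment its change was -0.63 (limma, adjusted p = 0.151). After level adjustment *Sox10* and *Foxd3* were thus the higher and *Snai2* the lower genes of the 9, beside 10.3% and 8.29% of all probe sets. Without NCP replicate 1 the counts as deposited were 3 higher and 6 lower.

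The factors most related to MITF, which share its DNA-binding fold, were measured by 3 genes. *Tfe3* was higher by 0.45 (limma, adjusted p = 0.0381) and *Tfec* lower, with a change of -1.08 (limma, adjusted p = 0.00942), and 0 of the 3 passed after level adjustment, with or without the adjustment of p (limma). The call for *Tfec* was lost without NCP replicate 2 or 3 (-0.88 and -0.87). The call for *Tfe3* was lost without any of 5 of the 10 arrays.

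Of 9 measured genes for signals and receptors of melanoblasts, 3 were higher and 2 lower, counts near the shares of all probe sets or below them, with a median of 0.30 against 0.45 in probe sets of similar level. *Wnt1*, a ligand that promotes melanocyte fate, was higher by 1.60 (limma, adjusted p = 5.31e-06), where probe sets of similar level moved as much. Its level adjusted change was -0.08. *Wnt1* lay among the receptor probe sets, at percentile 45.8 on average in NCPs and 51.2 in total embryo. On average 4 of the 9 genes lay below the 95th percentile of the receptor probe sets in both groups. *Mc1r*, the melanocortin receptor that controls pigment type, was higher by 0.91 (limma, adjusted p = 0.00311). *Ednrb*, the endothelin receptor of melanoblasts and enteric progenitors, was lower, with a change of -1.35 (limma, adjusted p = 0.00014), but lay 0.34 above probe sets of similar level. *Met*, the receptor of hepatocyte growth factor, was lower, with a change of -0.80 (limma, adjusted p = 0.00378), or of -0.51 without NCP replicate 1. On the level adjusted scale 0 of the 9 passed (limma), where 10.3% of all probe sets were higher and 8.29% lower. Of the 9, 1, *Kitl*, had an unadjusted p below 0.05 there. *Kitl* encodes stem cell factor, the ligand of KIT, and was looked at after its values were seen. Its change was -0.45 (limma, adjusted p = 0.0738), which passed without NCP replicate 1 (-0.61) or total embryo replicate 4 (-0.52), and after level adjustment -0.52 (limma, adjusted p = 0.112). Without NCP replicate 2 the list counted 5 higher and 2 lower, and without NCP replicate 1, 2 higher and 3 lower. *Asip*, the tenth gene of this list, had no probe set of its own.

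Of 10 genes for melanosome proteins, 4 were higher and 2 lower, near the shares of all probe sets as deposited too. After level adjustment 1 was higher and 1 lower, beside 10.3% and 8.29% of all probe sets. *Gpr143*, a receptor of the melanosome membrane, was higher by 1.57, and *Oca2*, a melanosomal transporter, by 1.35 (limma, adjusted p = 0.000339 and 1.25e-05). Probe sets of similar level moved nearly as far, since *Gpr143* lay 0.23 and *Oca2* 0.09 above their medians. Both genes lay among the receptor probe sets. On average *Gpr143* stood at percentile 63.6 in NCPs and 69.0 in total embryo, and *Oca2* at 63.4 and 73.7. In both groups 4 of the 10 genes lay on average below the 95th percentile of the receptor probe sets. *Mlana*, a melanosome protein used as a melanocyte marker, was at 5.38 ± 0.56 (SD, n = 3) in NCPs and 6.67 ± 0.32 (SD, n = 7) in total embryo, lower, with a change of -1.28 and of -0.98 after level adjustment (limma, adjusted p = 0.0141). *Atp7a*, the copper pump that supplies tyrosinase, was lower, with a change of -1.10 (limma, adjusted p = 0.0033), or of -0.67 without NCP replicate 1. *Pmel*, the protein of the melanosome's fibrils, had a change of -0.38 (limma, adjusted p = 0.225), and it was -0.81 and passed without NCP replicate 1 (limma, adjusted p = 0.00383) and -0.15 without NCP replicate 2. *Gpnmb*, a glycoprotein related to PMEL and found also in macrophages, was higher by 1.03 and after level adjustment by 0.71 (limma, adjusted p = 0.01). *Pmel* and *Gpnmb* were chosen after their values were seen.

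Of 15 genes for the trafficking of melanosomes, 4 were higher and 6 lower, beside 39.6% and 27.5% of all probe sets. The median change was -0.28, with a median of -0.0016 in probe sets of similar level. After level adjustment 1 was higher and 2 lower, beside 10.3% and 8.29% of all probe sets, and the median change of the 15 was 0.04. Without NCP replicates 1, 2 and 3 in turn, 3 to 5 were higher and 5 to 6 lower. *Rab32*, a small GTPase that delivers pigment enzymes, was higher by 0.96 and after level adjustment by 0.63 (limma, adjusted p = 0.0458). *Hps6*, part of a complex lost in Hermansky-Pudlak syndrome, was higher by 0.96 (limma, adjusted p = 0.0149), with NCP arrays that overlapped total embryo and a call lost without NCP replicate 3 (0.42). *Ap3b1*, an adaptor subunit for the same cargo, was lower, with a change of -2.72 and of -0.80 after level adjustment (limma, adjusted p = 0.0409). *Myo5a*, the motor that carries melanosomes along actin, was lower, with a change of -1.81 (limma, adjusted p = 6.85e-07) but did not pass after level adjustment (-0.40). *Dtnbp1*, which encodes dysbindin and was chosen after its values were seen, was lower, with a change of -1.06 and of -0.75 after level adjustment (limma, adjusted p = 0.0288). Most of these trafficking genes also serve lysosome-related organelles in cells without pigment.

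**Figure D4:**
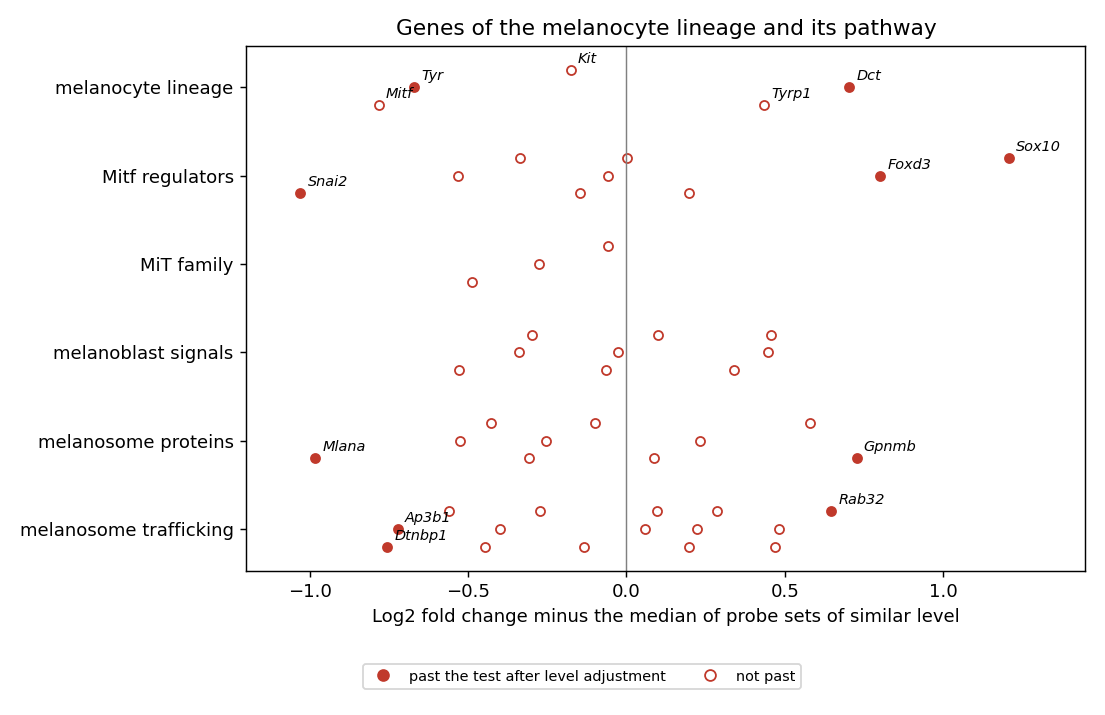
Log2 fold change minus the median change of probe sets of similar level (horizontal axis) for the 5 members and the genes of 5 related lists, with filled points for genes past the test after level adjustment (adjusted p of 0.05) and names for those genes and the members. Most points lie within 0.6 of 0, and *Sox10* (1.21) and *Snai2* (-1.03) lie farthest to either side.

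Other cells that could hold these transcripts were measured by marker lists, whose part in the results was not tested. The counts stand beside 39.6% of all probe sets called higher and 27.5% lower. After level adjustment these shares were 10.3% and 8.29%. Of the pigment epithelium of the retina, which uses *Mitf*, *Dct*, *Tyr* and *Tyrp1*, 7 markers were measured, with 3 higher and 1 lower, and a summed linear level of 441 to 485 on the NCP arrays and 302 to 382 on the total embryo arrays. The median change of these 7 was 0.39, where probe sets of similar level had 0.54, and after level adjustment 1 was higher and 0 lower. Of 7 mast cell markers 2 were higher and 3 lower (1 lower without NCP replicate 1), with sums of 396 to 491 and 608 to 777, and after level adjustment 0 were higher and 2 lower. All 5 germ cell markers were higher, with sums of 244 to 309 and 73.3 to 101, but 0 were higher and 1 lower after level adjustment, and all 5 lay below the 95th percentile of the receptor probe sets on average in both groups. Of the 2 markers of the interstitial cells of Cajal 1 was lower, with sums of 133 to 211 and 216 to 271, and the median change of the 2 was -0.53 and after level adjustment -0.05. Of 8 erythroid and blood progenitor markers 2 were higher and 2 lower, with sums of 658 to 792 and 965 to 1333, and after level adjustment 1 was higher and 1 lower. Of 6 Schwann cell precursor markers measured 1 was higher and 3 lower, with sums of 434 to 1009 and 3666 to 4499. After level adjustment 1 of them was higher and 2 lower. *Fabp7* and *Gap43*, named after their values were seen, made up 73.3% and 21.8% of the total embryo sum of mean levels. Their shares of the NCP sum were 22.5% and 42.6%. *Fabp7*, a fatty acid binding protein of glia, was lower, with a change of -4.39 and of -1.74 after level adjustment (limma, adjusted p = 0.00132). *Gap43*, a growth cone protein also of neurons, was lower, with a change of -1.71, but higher by 0.62 after level adjustment (limma, adjusted p = 0.0194). RMA values have no zero, so a marker cannot be read as absent, but 2 of the 7 retinal, 2 of the 7 mast cell and 2 of the 6 Schwann cell precursor markers also lay below that percentile in both groups.

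The genes whose level over the 10 arrays was most like that of each member were named by Pearson correlation, as a description. They were *Srek1*, *Thap12* and *Zranb2* for *Mitf* (r of 0.96 to 0.94), *Zfp623*, *Tmem216* and *Prkcq* for *Dct* (0.87 to 0.85), and *Olfr1*, *Mctp1* and *Hapln2* for *Tyr* (0.97 to 0.95). For *Tyrp1* they were *Oas1e*, *Ube2d2b* and *Csnka2ip* (0.97), and for *Kit* *Klk7*, *Nup214* and *Ptch1* (0.99 to 0.98). The points share the contrast of the groups and the width of each array's range, and 923 of 19936 genes had r above 0.9 with *Kit* and 388 with *Tyrp1*, against 66 with *Tyr*, 57 with *Mitf* and 0 with *Dct*. After level adjustment the same 15 pairs had r of -0.16 to 0.93. No member was among the 3 genes most like another.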

How the data were processed

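The deposited series matrix holds log2 values. The authors summarized them by RMA (robust Multi-Array Average) from Affymetrix mouse Gene 1.0 ST arrays with Affymetrix Expression Console 1.1, per the labels. Which arrays were normalized together is not given in the sources used here. The study's methods name NuGEN amplification and the labels a GeneChip kit. Groups come from the sample labels, replicates are numbered in accession order and pair no samples.

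Of 34760 probe sets, 6568 controls were left out. The other 28192 were tested with limma 3.58.1 in R 4.3.3 (lmFit, eBayes, Benjamini-Hochberg over all of them, adjusted p of 0.05). Level adjustment subtracted the lowess trend (span 0.3) of each array's difference from the total embryo mean on that mean. Summed levels are sums of values brought back from log2. The array gives no read depth, and the number of arrays limits the precision. Fits were also run on simulated data in which all arrays were independent and had the spread of total embryo. That run does not bear on p-values where control arrays share an RNA. Motifs and plots used Python 3.11.15 and matplotlib 3.10.9. Symbols follow the platform annotation, updated through RefSeq (GRCm38.p6), with 21553 matched. The array's build is not named in it, so no probe coordinates are given.

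Named genes are the members, *Sox10*, per list up to 2 genes of largest increase and 2 of largest decrease past the threshold, and the 3 genes most like each member. The text gives a selection of these, and exceptions are marked. The members and lists were chosen with earlier results of these data known. The lists are regulators of *Mitf*, MiT family, melanoblast signals, melanosome proteins, melanosome trafficking, Schwann cell precursor, retinal pigment epithelium, mast cell, germ cell, interstitial cells of Cajal, and erythroid and blood progenitor. Alternatives changed control arrays, isolates, scaling, prior, weights, test, filter, threshold, probe set and level window, and left out each array in turn.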

Additional observations from a re-analysis of the deposited data

Results flagged for a closer look

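The total embryo values were checked for the probe sets of the members and of the list genes named above. Among these 30 sets, 2 had a single array farther from the rest than Dixon's test allows at 95%. By chance about 5% of such sets are flagged. *Sox10* was low in total embryo replicate 2, at 6.38, where the other 6 arrays lay between 6.53 and 6.65. *Snai2* was high in total embryo replicate 1, at 7.88, where the others lay between 7.46 and 7.63. None of the 5 members had such an array. Groups of 3 were not tested.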

How the results depend on the processing

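The count of members called was not stable. The share of all probe sets called moved as well, from 39.6% higher and 27.5% lower as deposited. The 2 higher members became 1 against control arrays of either name series, with the name series as a fixed block, or with arrays centred on their medians. The same held with level adjustment, the filter on dim probe sets or an adjusted p of 0.01. In these fits 10.3% to 35.6% of all probe sets were called higher. The higher members became 0 with arrays averaged per isolate, isolate as a random block, arrays centred on receptor genes, or array weights. There 4.75% to 29.5% of all probe sets were called higher. *Tyrp1* had an unadjusted p below 0.05 in the fits with isolates and with weights. The 2 lower members became 1 against control arrays of the other name series, with level adjustment, the unmoderated test or the filter on dim probe sets. In these fits 8.29% to 26.8% of all probe sets were called lower. They also became 1 with the mean of all probe sets of a gene. The lower members became 0 with controls of the same name series, arrays averaged per isolate or isolate as a random block. The same held with the name series as a fixed block, array weights or an adjusted p of 0.01. In the fits with 0 lower members 14.8% to 23.7% of all probe sets were called lower. The lower members became 5 with arrays centred on receptor genes, where 78% of all probe sets were called lower. Leaving out each array in turn gave 1 to 2 higher and 1 to 2 lower, beside 38% to 39.4% and 26.1% to 28.1% of all probe sets. Quantile normalization again and cyclic loess left both counts at 2, but not with the same genes, since *Dct* and *Tyrp1* were higher in both, *Mitf* and *Kit* lower in the first and *Mitf* and *Tyr* in the second. The call as deposited was lost or turned in 20 of 27 alternatives for *Mitf*, 17 of 25 for *Tyr*, 9 of 26 for *Kit* and 6 of 26 for *Tyrp1*.

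Directions turned as follows. *Dct* was at 0.11 against the control array of the same day, 0.70 with quantile normalization, 0.90 with cyclic loess and 0.71 with level adjustment. *Tyr* was at -0.64, -0.81 and -0.68 with these 3 scalings and at -1.12 with arrays centred on receptor genes. *Mitf* was at 1.22 with the mean of its probe sets. Centring on receptor genes, which moved the median of all probe sets from 0.23 to -1.47, also turned *Tyrp1* (-0.85), *Sox10* (-0.69), *Foxd3* (-0.36), *Tfe3* (-1.25), *Wnt1* (-0.098), *Mc1r* (-0.78), *Gpr143* (-0.13), *Oca2* (-0.35), *Rab32* (-0.73), *Hps6* (-0.73) and *Gpnmb* (-0.66). *Tfe3* was at -0.125 with quantile normalization, -0.33 with cyclic loess and -0.29 with level adjustment. *Wnt1* was at -0.0465 with cyclic loess and -0.084 with level adjustment. *Ednrb* was at 0.30 with both, and *Gap43* at 0.36 and 0.62. *Pmel* was at 0.049 against the control array of the same day. The cause of these changes was not tested.

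Windows of 0.1 and 0.5 log2 units in place of 0.25 kept each member on its side of the median of similar level. The level adjusted calls for *Dct* and *Tyr* were lost with arrays averaged per isolate (0.70 and -0.68) and with controls of one name series, which were chosen after seeing the data. Each of these fits has fewer arrays. No paired analysis was possible because the replicate numbers follow accession order and the columns carry no pairing.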
